A study of Arabidopsis thaliana with 12 samples.

Results

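The major latex protein-like genes (MLP) examined here were the 9 Arabidopsis genes MLP28, MLP31, MLP34, MLP43, MLP423, MLP328, MLP329, MLP168 and MLP165, taken by their gene identifiers from a table of 33010 genes. They were selected on their family name, with earlier results of these data known. MLP34 among them was chosen by its measured shoot levels, higher in CCA1-ox than in WT. The CCA1-ox and WT values of shoots are therefore given for every member as a description, with no test. RNA was sequenced from seedlings grown for 8 days in constant white fluorescent light of 15 µE at 22 °C. The groups were shoots of CCA1-ox plants, shoots of wild-type Col-0 (WT), roots of CCA1-ox plants and roots of WT, with 3 libraries in each of the 4 groups. CCA1, which the CCA1-ox plants overexpress, is a core clock gene that encodes a MYB repressor active in the morning. The sources used here do not give the promoter that drives the added CCA1, the number of lines or the time of harvest. The labels do not name separate cultures, so p-values measure only the spread between these libraries, which may be technical.

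MLP proteins take their name from the abundant proteins of opium poppy latex and belong to the superfamily of the birch pollen allergen Bet v 1. Proteins of this superfamily fold around a deep hydrophobic cavity that can hold small molecules such as hormones, lipids and secondary metabolites. The PYR/PYL receptors of the hormone abscisic acid have the same fold, and in zucchini, MLP proteins have been found in xylem sap.

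Levels are in FPKM, the fragments of a gene divided by its length and by the library size the authors used, and can be compared between genes. That size over the summed fragments averaged 0.976 in CCA1-ox shoots, 0.906 in WT shoots, 1.10 in CCA1-ox roots and 1.15 in WT roots. Ratios between groups therefore depend on the scaling. Fragments per library numbered 37216665 to 39814773 (CCA1-ox shoots), 39683894 to 44242304 (WT shoots), 27142671 to 38537638 (CCA1-ox roots) and 37773138 to 45051329 (WT roots). CCA1 averaged 214 ± 1.98 FPKM in CCA1-ox shoots and 44.96 ± 0.202 FPKM in WT shoots, and 175 ± 4.36 FPKM in CCA1-ox roots and 17.1 ± 0.838 FPKM in WT roots (SD, n = 3 each). Of the 33010 genes, 20975 reached 1 FPKM in at least 3 libraries and entered the fits. Among the MLP genes 8 of 9 did, and MLP31 did not. Shoots and roots were also checked against marker genes. The 4 genes of green tissue summed to 21666 to 22216 FPKM in CCA1-ox shoots and 31924 to 32163 FPKM in WT shoots, against 0.908 to 1.23 FPKM in CCA1-ox roots and 17.6 to 19.9 FPKM in WT roots.

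Positions are those of the deposited table (TAIR 10), and all 9 genes had the same positions in the RefSeq annotation of TAIR10.1. MLP28 (AT1G70830, 26709889 to 26711587), MLP31 (AT1G70840, 26712982 to 26714069), MLP34 (AT1G70850, 26714866 to 26716901) and MLP43 (AT1G70890, 26725521 to 26726652) lie close together on the minus strand of chromosome 1. MLP423 (AT1G24020, 8500119 to 8502065), MLP165 (AT1G35260, 12936849 to 12937787) and MLP168 (AT1G35310, 12956119 to 12957090) lie elsewhere on the minus strand of that chromosome. MLP328 (AT2G01520, 235925 to 237253) and MLP329 (AT2G01530, 239669 to 240687) lie 2.415 kb apart on the plus strand of chromosome 2. No member overlapped another gene of the table.

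Several members are close copies, which is shown here because a fragment from a shared stretch could be counted for either gene. The following 120-base coding stretches come from the RefSeq genome TAIR10.1, on the coding strand. Capitals in MLP28 and MLP43 mark bases that differ from MLP34, and capitals in MLP328 mark bases that differ from MLP329.
MLP34 coding: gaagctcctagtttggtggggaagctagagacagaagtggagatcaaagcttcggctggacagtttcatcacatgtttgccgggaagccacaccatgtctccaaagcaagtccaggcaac
MLP28 coding: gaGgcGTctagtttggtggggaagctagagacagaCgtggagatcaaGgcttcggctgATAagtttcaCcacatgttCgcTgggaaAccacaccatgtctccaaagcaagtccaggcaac
MLP43 coding: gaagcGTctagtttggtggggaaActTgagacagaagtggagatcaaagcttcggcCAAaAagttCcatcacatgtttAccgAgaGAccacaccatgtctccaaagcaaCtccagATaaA
MLP329 coding: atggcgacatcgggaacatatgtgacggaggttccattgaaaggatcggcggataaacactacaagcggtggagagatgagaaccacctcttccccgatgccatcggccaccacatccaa
MLP328 coding: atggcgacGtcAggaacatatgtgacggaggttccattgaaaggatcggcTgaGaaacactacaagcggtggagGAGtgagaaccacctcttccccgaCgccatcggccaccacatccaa

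In these stretches MLP28 differed from MLP34 at 12 bases, MLP43 from MLP34 at 17 bases and MLP328 from MLP329 at 8 bases. Over the aligned coding sequence MLP28 and MLP34 were 89.8% identical, MLP328 and MLP329 89.7%, MLP28 and MLP43 85.1%, MLP34 and MLP43 84.9%, and MLP168 and MLP165 83.5%. The longest stretch of identical exon bases was 72 between MLP28 and MLP34 and 38 between MLP328 and MLP329. MLP28 and MLP34 also shared a longer reading frame, of 1008 and 951 bases, whereas the reading frames of the other 7 members had 456 to 516 bases. The sources used here do not say how fragments that fit more than 1 copy were counted. MLP28 and MLP34 had very unequal levels in WT. In WT roots MLP34 averaged 1194 FPKM and MLP28 0.326 FPKM, while in WT shoots MLP34 averaged 3.07 FPKM and MLP28 276 FPKM. The WT shoot libraries held 479 fragments of MLP34 and 47729 of MLP28. In CCA1-ox shoots both were high, MLP34 at 293 FPKM and MLP28 at 531 FPKM. Exchange of fragments between MLP28 and MLP34 was not tested. MLP328 and MLP329 were both high in WT roots, at 447 and 393 FPKM, so fragments exchanged between this pair would not be seen in their levels, and the values of each are uncertain to that extent. MLP328 also shared a run of 39 identical exon bases with AT4G14060.

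**Figure D1:**
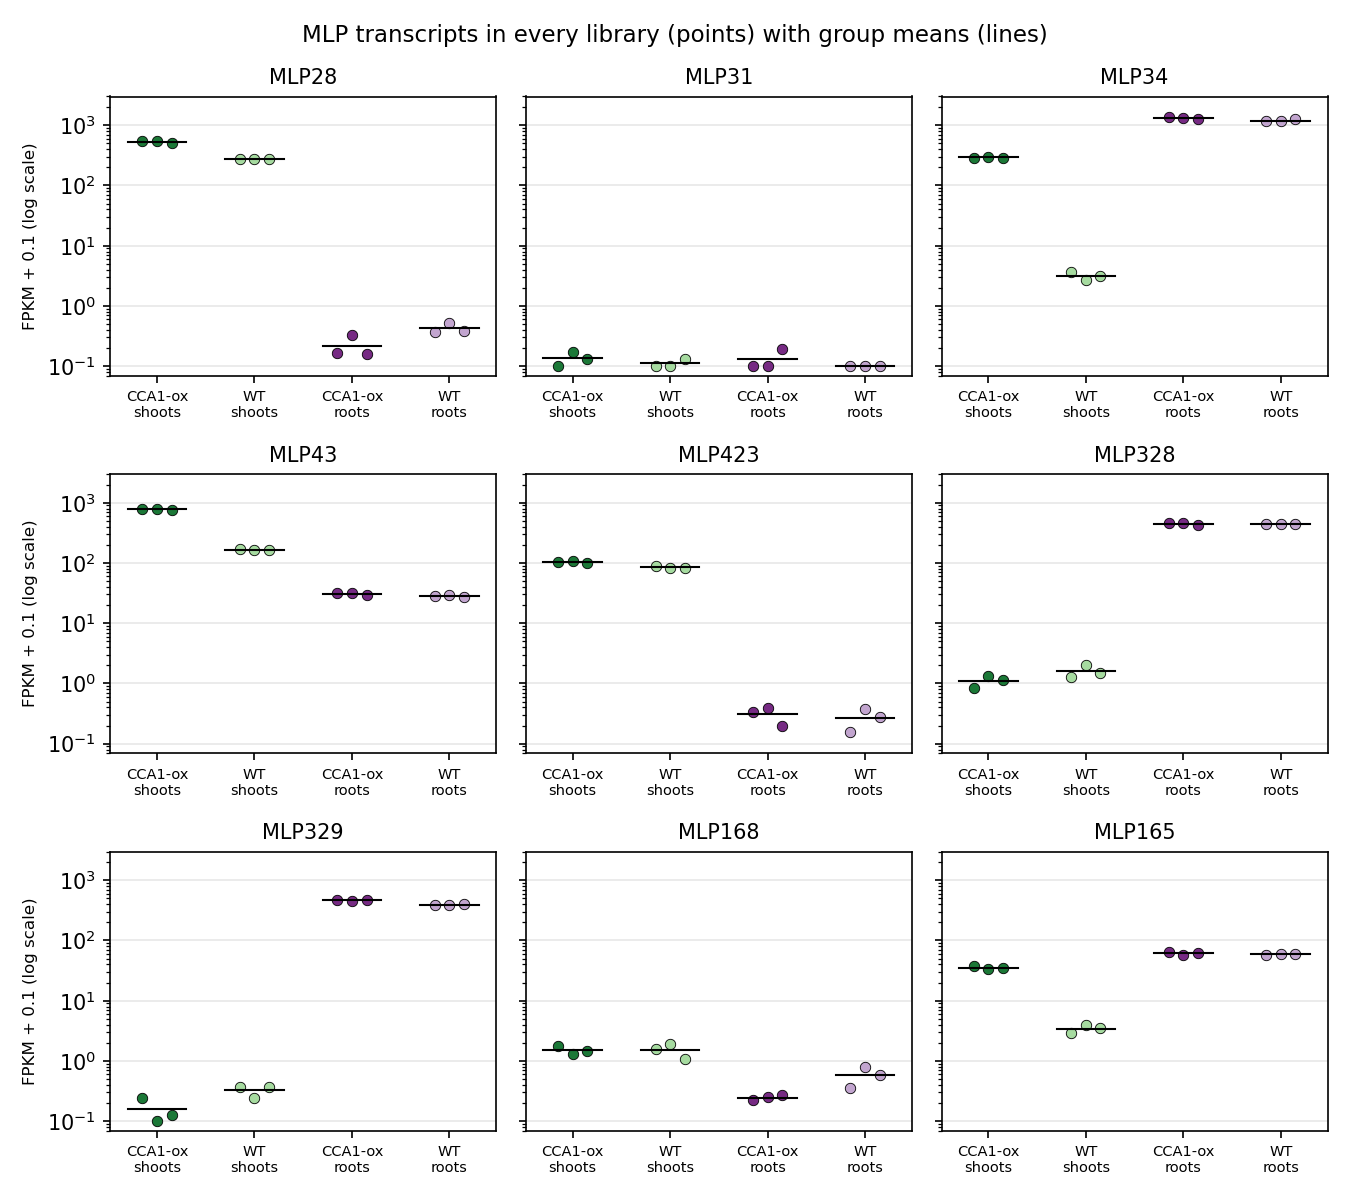
FPKM + 0.1 of the 9 MLP genes on a log axis, with 1 point for each of the 12 libraries and a line at the group mean, for CCA1-ox shoots, WT shoots, CCA1-ox roots and WT roots. MLP34 lies at 290 to 297 FPKM in CCA1-ox shoots and at 2.56 to 3.58 FPKM in WT shoots, and at 1159 to 1364 FPKM in the root libraries.

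The MLP genes divided by organ in WT. MLP34, MLP328, MLP329 and MLP165 were higher in roots, and MLP28, MLP43, MLP423 and MLP168 were higher in shoots. Organ differences were tested in 7 members, without MLP31, which failed the filter, and MLP34, whose WT shoot level was part of what chose it. Of these 7, 3 were higher and 4 lower in WT roots, where 45.3% of all genes tested were called higher and 41.8% lower (limma, adjusted p under 0.05). Most members passed the filter through the organ where they are high, so this count does not set them apart from other genes. With the libraries scaled to their summed fragments instead, 12194 of all genes tested were called higher and 6400 lower, against 9510 higher and 8775 lower as deposited, and the 7 members kept their directions.

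Among the members that were higher in roots, MLP34 was the most abundant, at 1178, 1159 and 1246 FPKM in WT roots, against 3.58, 2.56 and 3.08 FPKM in WT shoots. It stood 12th of all genes of the table in WT roots and 15415th in WT shoots. MLP328 is annotated by RefSeq as responsive to cis-cinnamic acid, promoting vegetative growth and delaying flowering. It had 449, 443 and 449 FPKM in WT roots, against 1.18, 1.94 and 1.36 FPKM in WT shoots. The difference in log2(FPKM + 1) was 7.50 (limma with Benjamini-Hochberg adjustment, adjusted p = 4.50e-17).

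MLP329, its neighbour and the most identical of the 9 in coding sequence, had 388, 390 and 401 FPKM in WT roots. In WT shoots it had 0.266, 0.142 and 0.265 FPKM, from 9, 5 and 10 fragments. This was a difference of 8.33 (limma, adjusted p = 4.40e-20). MLP165 had 57.1, 60.4 and 59.9 FPKM in WT roots, against 2.83, 3.80 and 3.44 FPKM in WT shoots, a difference of 3.79 (limma, adjusted p = 2.80e-15). In WT, 3 of the 7 tested members lay higher in roots and 4 lower with no overlap between libraries, against 45.6% and 42.3% of all genes tested.

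Among the members that were lower in roots, MLP28 had 0.272, 0.418 and 0.287 FPKM in WT roots, from 18, 33 and 22 fragments. In WT shoots it had 274, 279 and 276 FPKM, a difference of −7.71 (limma, adjusted p = 1.24e-19). MLP28 thus had the reverse of the organ pattern of MLP34, the member most identical to it. MLP423 had 0.0551, 0.277 and 0.174 FPKM in WT roots, against 89.5, 83.1 and 81.5 FPKM in WT shoots (−6.20, limma, adjusted p = 2.17e-17). MLP43 had 27.7, 28.8 and 27.0 FPKM in WT roots, against 168, 167 and 161 FPKM in WT shoots (−2.53, limma, adjusted p = 6.61e-17). MLP43 was therefore the member with substantial levels in both organs. MLP168 was low throughout, at 0.249, 0.697 and 0.478 FPKM in WT roots, against 1.51, 1.83 and 0.959 FPKM in WT shoots (−0.72, limma, adjusted p = 0.000226). MLP31 had 0 to 3 fragments in each of the 12 libraries and no level above 0.0933 FPKM, so no comparison could be made for it. A difference of at least 16-fold on the log2(FPKM + 1) scale was reached by 4 of the 7 tested members (MLP28, MLP423, MLP328 and MLP329) and by 5.44% of all genes tested. MLP28 and MLP423 passed the filter through shoots alone and MLP329 through roots alone, so nothing is read from this count either. In bulk RNA of an organ, fewer cells of a type and less RNA per cell cannot be told apart.

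In CCA1-ox shoots, MLP34, MLP165, MLP43, MLP28 and MLP423 were higher in CCA1-ox, and for each of them the lowest CCA1-ox library lay above the highest WT library. The groups overlapped for MLP168, MLP328 and MLP329. Thus 5 of 8 members lay higher with no overlap and 0 lower. Over all genes tested, 28.7% lay higher with no overlap and 31.7% lower. These values come from the comparison that drew attention to MLP34, and nothing is read from the count. At least 2-fold higher with no overlap were 3 members (MLP34, MLP165 and MLP43) and 0 were lower, against 3.79% and 0.749% of all genes tested. MLP34 was picked for this rise, so nothing is read from this count either.

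MLP34 had 291, 297 and 290 FPKM in CCA1-ox shoots, against 3.58, 2.56 and 3.08 FPKM in WT shoots. The means were 293 ± 4.14 and 3.07 ± 0.507 FPKM (SD, n = 3 each), a 95.3-fold ratio and a difference in log2(FPKM + 1) of 6.18. The WT shoot values came from 177, 132 and 170 fragments. How many of these could belong to MLP28 was not tested, and the ratio is uncertain to that extent. As deposited, the MLP34 level in CCA1-ox shoots was 24.5% of that in WT roots, a share that depends on the scaling. Among all genes of the table it stood 257th in CCA1-ox shoots and 15415th in WT shoots.

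MLP165 had 37.96, 33.98 and 34.4 FPKM in CCA1-ox shoots, against 2.83, 3.80 and 3.44 FPKM in WT shoots (difference 3.07, 10.6-fold). As deposited, that was 60.0% of its level in WT roots, which depends on the scaling too. MLP34 and MLP165 are both genes with higher levels in WT roots than in WT shoots, but the other root-abundant members did not share their shoot values. MLP328 had 0.738, 1.21 and 1.06 FPKM in CCA1-ox shoots, against 1.18, 1.94 and 1.36 FPKM in WT shoots (difference −0.31, groups overlapping). MLP329 had 5, 0 and 1 fragments in CCA1-ox shoots, against 9, 5 and 10 fragments in WT shoots (0.0579 ± 0.0778 and 0.224 ± 0.0713 FPKM, SD, n = 3 each). In the chromosome 2 pair, MLP329 was thus at or near 0 and MLP328 at 0.738 to 1.94 FPKM in the shoot libraries. Each exceeded 380 FPKM in every root library.

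The CCA1-ox over WT ratios in shoots were smaller for MLP43, MLP28 and MLP423, the most abundant members in WT shoots, than for MLP34 and MLP165. MLP43 had 794, 796 and 769 FPKM in CCA1-ox shoots, against 168, 167 and 161 FPKM in WT shoots (difference 2.24, 4.76-fold). MLP28 had 539, 538 and 516 FPKM in CCA1-ox shoots, against 274, 279 and 276 FPKM in WT shoots (0.94, 1.92-fold). MLP423 had 102, 106 and 99.7 FPKM in CCA1-ox shoots, against 89.5, 83.1 and 81.5 FPKM in WT shoots (0.27, 1.21-fold). MLP168 had 1.69, 1.20 and 1.36 FPKM in CCA1-ox shoots, against 1.51, 1.83 and 0.959 FPKM in WT shoots, with the groups overlapping. In FPKM, the gain of MLP43 was larger than that of MLP34, which had the larger ratio.

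Summed over the 9 genes, MLP levels were 1751 ± 34.2 FPKM in CCA1-ox shoots and 536 ± 7.04 FPKM in WT shoots (SD, n = 3 each). The leading gene differed between them. MLP43 made up 44.9% of the sum in CCA1-ox shoots and 30.8% in WT shoots. MLP28 made up 30.3% in CCA1-ox shoots and 51.6% in WT shoots. MLP34 made up 16.7% in CCA1-ox shoots and 0.573% in WT shoots, and MLP423 made up 5.86% in CCA1-ox shoots and 15.8% in WT shoots. In roots the sum was 2325 ± 72.3 FPKM in CCA1-ox and 2122 ± 53.8 FPKM in WT, and MLP34 made up 56.6% of it in CCA1-ox and 56.3% in WT. The next were MLP329, with 20.2% in CCA1-ox roots and 18.5% in WT roots, and MLP328, with 19.2% in CCA1-ox roots and 21.1% in WT roots. MLP328 lay above MLP329 with no overlap in WT roots, while the FPKM of the pair overlapped in CCA1-ox roots.

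**Figure D2:**
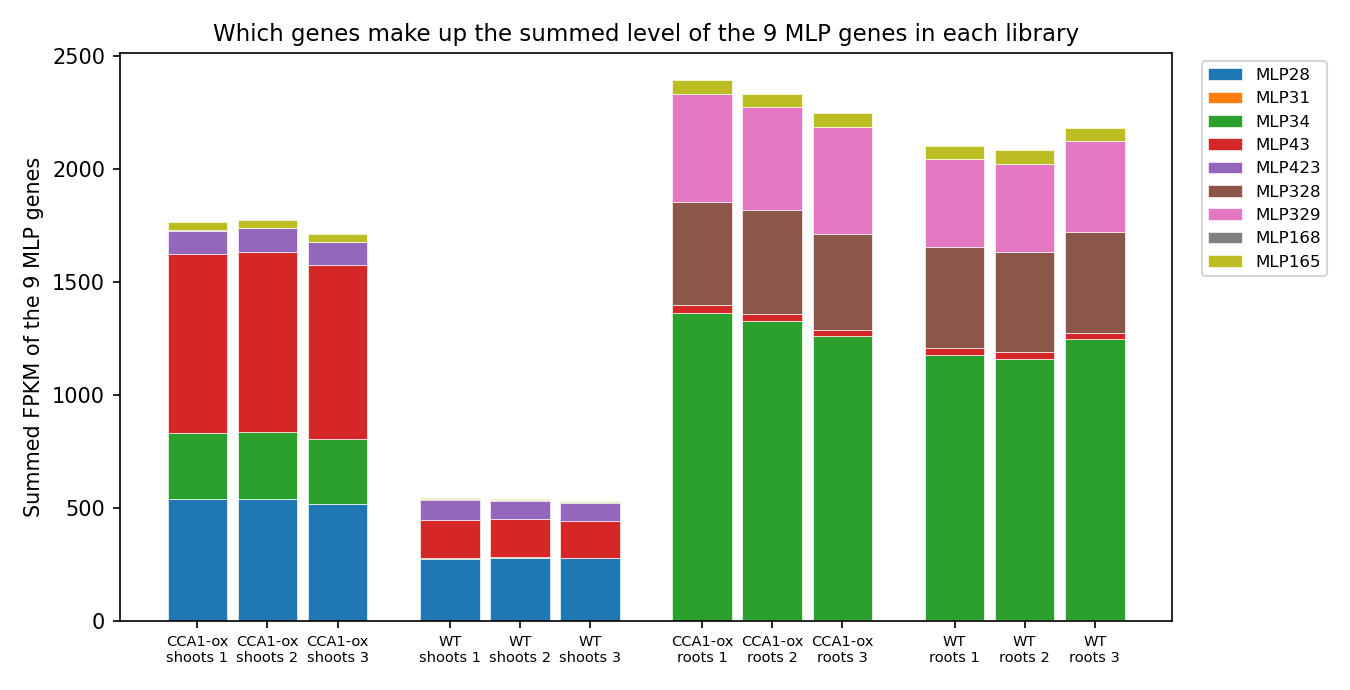
Summed FPKM of the 9 MLP genes, stacked by gene, with 1 bar for each of the 12 libraries of CCA1-ox shoots, WT shoots, CCA1-ox roots and WT roots. MLP43, MLP28 and MLP34 make up on average 44.9%, 30.3% and 16.7% of the bars of CCA1-ox shoots, and MLP34 makes up over 56% of the sum in both root groups.

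Markers of root tissue were set beside the shoot values, since MLP34 and MLP165 are abundant in roots. The 8 root hair genes summed to 0.101 to 0.243 FPKM in CCA1-ox shoots and 0.0220 to 0.0945 FPKM in WT shoots, and all 8 overlapped between these groups. They summed to 131 to 135 FPKM in CCA1-ox roots and 93.7 to 96.9 FPKM in WT roots. The 3 root cap genes summed to 0.0229 to 0.0933 FPKM in CCA1-ox shoots and 0 to 0.0633 FPKM in WT shoots, against 12.1 to 13.3 FPKM in CCA1-ox roots and 8.47 to 9.36 FPKM in WT roots. MLP34 was at 290 to 297 FPKM in the CCA1-ox shoot libraries, and whether root tissue had a part in this level was not tested. The 5 endodermis genes summed to 20.3 to 26.2 FPKM in CCA1-ox shoots and 10.5 to 12.3 FPKM in WT shoots, and all 5 were higher in CCA1-ox with no overlap. Their defining gene CASP1 averaged 11.7 FPKM in CCA1-ox shoots and 4.78 FPKM in WT shoots. The 6 phloem genes summed to 171 to 177 FPKM in CCA1-ox shoots and 202 to 207 FPKM in WT shoots, and SUC2, the phloem sucrose carrier, averaged 63.0 FPKM in CCA1-ox shoots and 90.7 FPKM in WT shoots. With no overlap, SUC2 and PP2-A1 lay lower in CCA1-ox shoots and the other 4 (APL, SEOR1, SEOR2 and CALS7) higher. Over all genes tested, 28.7% lay higher with no overlap in CCA1-ox shoots and 31.7% lower, and nothing is read from these marker counts. The part of root tissue, endodermis, phloem or green tissue in the MLP shoot values was not tested.

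The root comparison was not the one that drew attention to MLP34, but the members were chosen with earlier results of these data known. In roots, the CCA1-ox and WT levels of the 5 members above 20 FPKM differed by at most 1.19-fold. Of the 8 members tested, MLP329 and MLP43 were higher in CCA1-ox roots, MLP28 was lower, and 5 were not called (limma, adjusted p under 0.05). Over all genes tested, 20.8% were called higher and 15.4% lower. The median difference in log2(FPKM + 1) was 0.046 over the 8 members and 0.016 over all genes tested. With no overlap between libraries, 3 members lay higher and 2 lower, against 27.6% and 19.7% of all genes tested. On the log2(FPKM + 1) scale no member reached a 2-fold difference with no overlap, against 0.448% of all genes tested upward and 1.01% downward. That scale compresses low genes: by the ratio of mean FPKM, MLP28 was 2.77-fold and MLP168 3.22-fold lower in CCA1-ox roots with no overlap, both from a few fragments a library. As deposited, 4372 genes were called higher and 3240 lower in CCA1-ox roots, whereas scaling to the summed fragments gave 2953 higher and 4665 lower.

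MLP329 had 478, 454 and 474 FPKM in CCA1-ox roots, against 388, 390 and 401 FPKM in WT roots. It was higher in all 3 CCA1-ox libraries (log2 difference 0.25, SE 0.0534, limma adjusted p = 0.00220, 1.19-fold). With a pseudocount of 0.1 it was not called (limma adjusted p = 0.502). Its neighbour MLP328 had 457, 462 and 424 FPKM in CCA1-ox roots, against 449, 443 and 449 FPKM in WT roots, and the groups overlapped (log2 difference 0.00037, SE 0.0978, limma adjusted p = 1). The sign of the MLP328 difference turned negative with quantile normalization, with summed-fragment scaling and with voom.

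MLP43 had 31.6, 32.1 and 29.3 FPKM in CCA1-ox roots, against 27.7, 28.8 and 27.0 FPKM in WT roots. The 3 CCA1-ox libraries lay above the 3 WT libraries (0.15, SE 0.0342, limma adjusted p = 0.00373, 1.11-fold). It was not called with summed-fragment scaling (limma adjusted p = 0.0645) or with voom on the recovered fragments (limma adjusted p = 0.225). MLP28 had 3, 11 and 4 fragments in CCA1-ox roots, against 18, 33 and 22 fragments in WT roots. Its FPKM averaged 0.118 ± 0.0930 in CCA1-ox roots and 0.326 ± 0.0806 in WT roots (SD, n = 3 each). The log2 difference was −0.25 (SE 0.0555, limma adjusted p = 0.00327) at a level close to 0 in all 6 libraries. It was not called with a pseudocount of 5 (limma adjusted p = 0.0988) or with quantile normalization (limma adjusted p = 0.0539).

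MLP34 had 1364, 1325 and 1260 FPKM in CCA1-ox roots, against 1178, 1159 and 1246 FPKM in WT roots. The groups did not overlap, but the gap between 1260 and 1246 FPKM was small and the difference was not called (0.14, SE 0.0663, limma adjusted p = 0.121, 1.10-fold). It was called with a pseudocount of 5, quantile normalization, voom, or without WT shoots replicate 1 or 2 (limma adjusted p = 0.0177, 0.00586, 0.00433, 0.0313 and 0.0222). Without either shoot library the root difference stayed at 0.14, but the SE pools the spread of all 12 libraries, shoots included. With the root groups fitted alone, MLP34 was not called (limma adjusted p = 0.0637). MLP168 had 3, 4 and 6 fragments in CCA1-ox roots, against 9, 30 and 20 fragments in WT roots (−0.35, SE 0.136, limma adjusted p = 0.0612). MLP165 had 63.4, 56.5 and 62.7 FPKM in CCA1-ox roots, against 57.1, 60.4 and 59.9 FPKM in WT roots, and the groups overlapped (limma adjusted p = 0.728). MLP423 averaged 0.211 ± 0.105 FPKM in CCA1-ox roots and 0.169 ± 0.111 FPKM in WT roots (limma adjusted p = 0.652). In CCA1-ox roots 6 of the 8 root hair genes, 2 of the 3 root cap genes and all 5 endodermis genes were called higher. The root hair gene PRP1 was called lower, as were 3 of the 6 phloem genes and 3 of the 4 green tissue genes. The shares over all genes tested were 20.8% higher and 15.4% lower. Of the green tissue genes, RBCS1A averaged 0.225 FPKM in CCA1-ox roots and 4.61 FPKM in WT roots. Of the members higher in WT shoots, MLP28 was called lower in CCA1-ox roots, MLP43 higher, and MLP423 and MLP168 were not called. The part of these tissues in the MLP values was not tested.

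**Figure D3:**
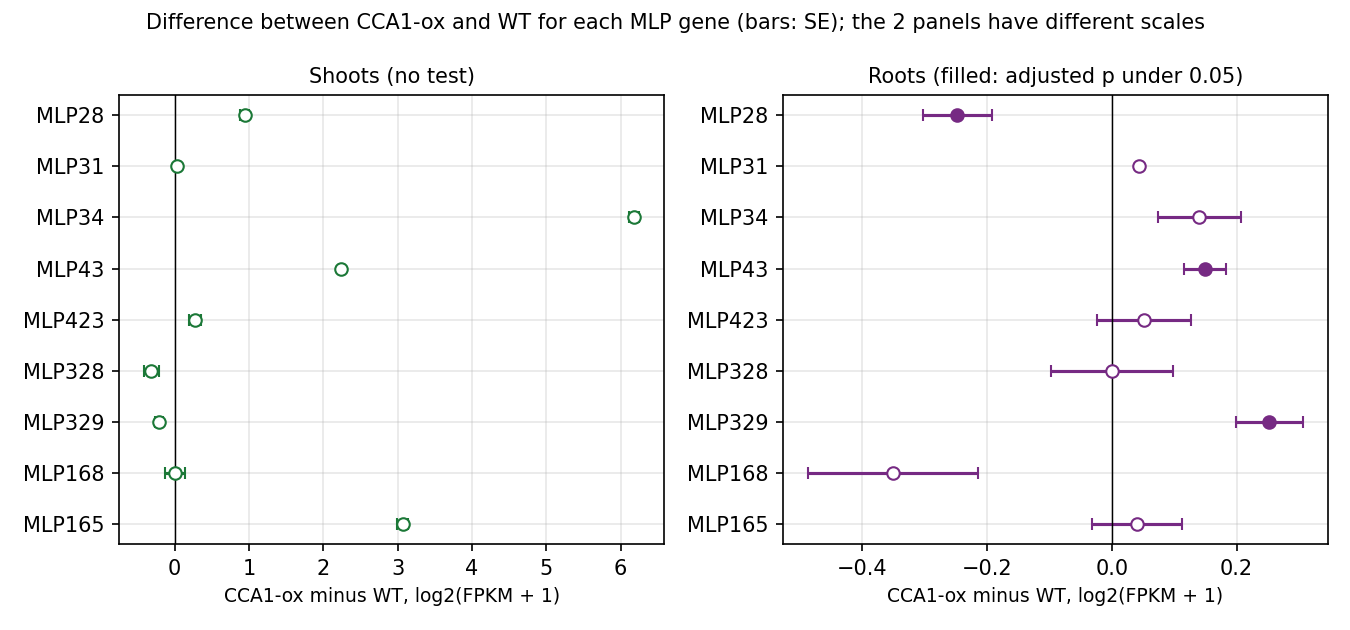
Difference in log2(FPKM + 1) between CCA1-ox and WT for the MLP genes, in shoots and in roots, from the means of 3 libraries a group, with bars for the SE (none for MLP31, which was not fitted) and filled points for calls in roots. The SE pools the spread of all 12 libraries, and the panels have different scales. MLP34, MLP165, MLP43 and MLP28 lie at 6.18, 3.07, 2.24 and 0.94 in shoots, and every member lies between −0.35 and 0.25 in roots. No test was made in shoots.

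The neighbours of MLP34 on chromosome 1 belong to the same family. Between MLP28 and MLP43, 7 genes in a row over 16.764 kb are annotated in the family, all on the minus strand. Their levels did not follow their order. From the MLP28 end, CCA1-ox and WT shoots averaged 531 and 276 FPKM for MLP28, 0.0350 and 0.0109 FPKM for MLP31, and 293 and 3.07 FPKM for MLP34. The next were AT1G70860 with 0.207 and 0.0285 FPKM, AT1G70870 with no fragments in either, AT1G70880 with 2.67 and 0.0920 FPKM, and MLP43 with 786 and 165 FPKM. In the same row, CCA1-ox and WT roots averaged 14.9 and 8.47 FPKM for AT1G70860 and 26.0 and 23.3 FPKM for AT1G70880, both genes with little or no signal in WT shoots. The gene beside MLP28 outside the row, AT1G70820, averaged 37.7 FPKM in CCA1-ox shoots and 39.0 FPKM in WT shoots and was listed at 0 in roots. The gene beside MLP43, CLE17, averaged 4.63 FPKM in CCA1-ox shoots and 5.24 FPKM in WT shoots. Further out, AT1G70810 averaged 7.93 FPKM in CCA1-ox shoots and 4.86 FPKM in WT shoots, and AT1G70900 22.5 and 23.7 FPKM.

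**Figure D4:**
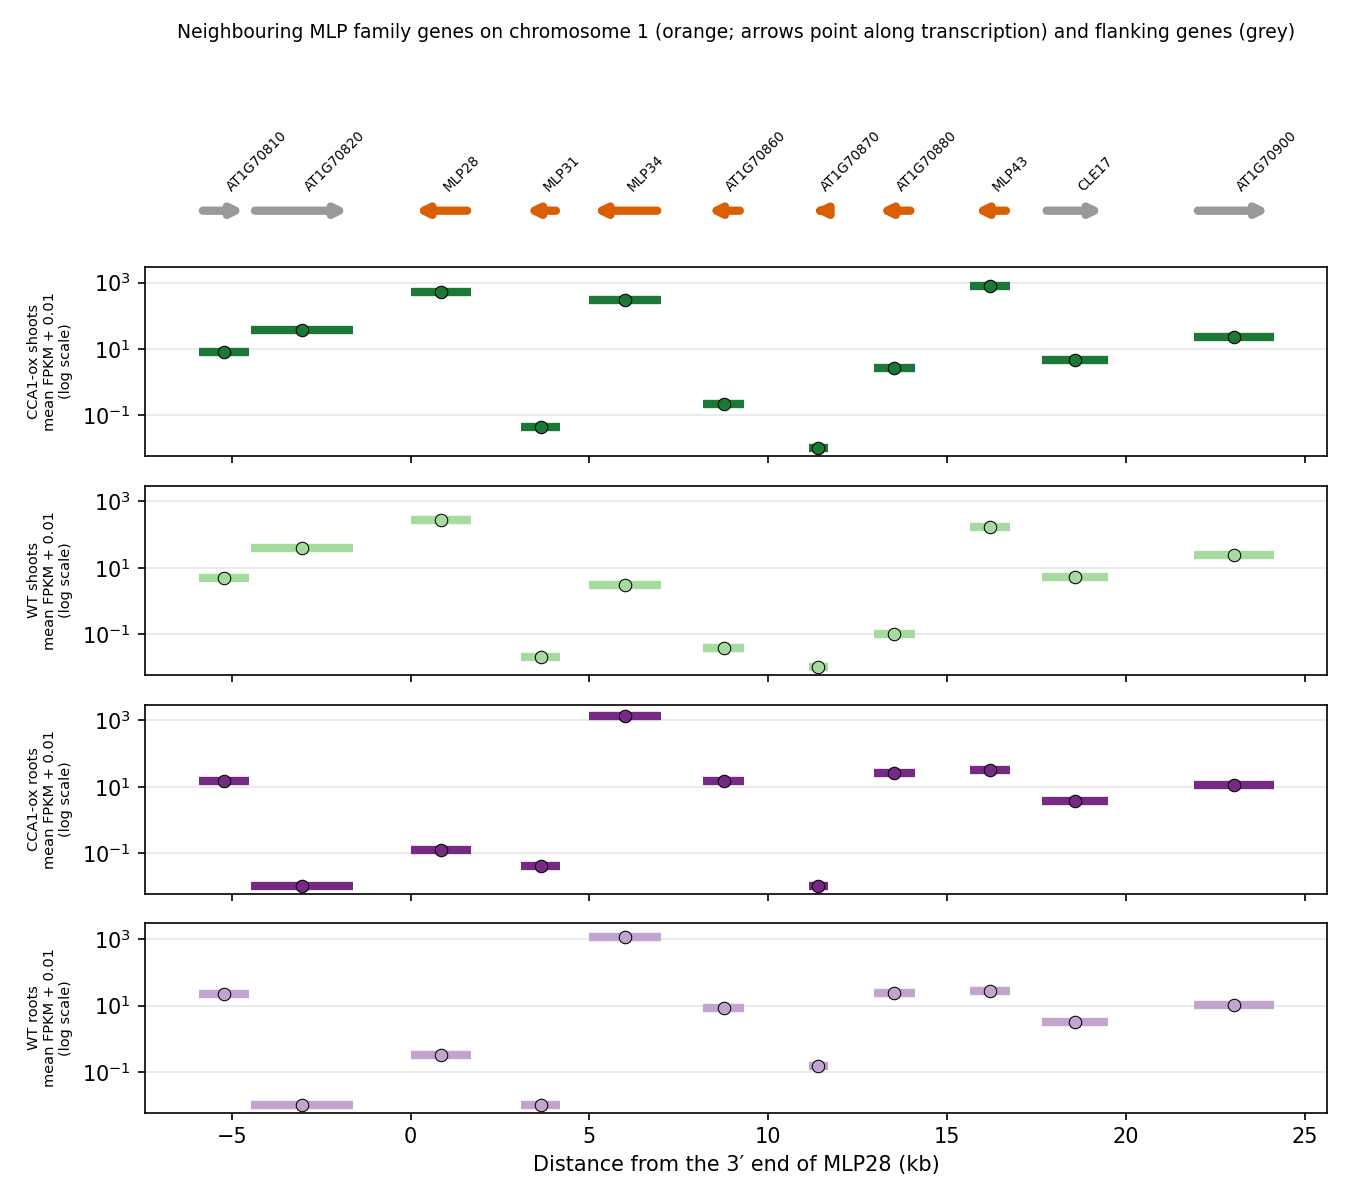
Mean FPKM + 0.01 on a log axis of the genes around MLP34 on chromosome 1, by distance in kb from the 3′ end of MLP28, in CCA1-ox shoots, WT shoots, CCA1-ox roots and WT roots (3 libraries each). High and near-0 genes stand side by side in the 7-gene row. The flanking genes AT1G70820, CLE17 and AT1G70900 have close levels in CCA1-ox and WT shoots, while AT1G70810 is at 7.93 and 4.86 FPKM.

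The 250 bases before the annotated start are shown for 4 members. In shoots CCA1-ox and WT libraries did not overlap for MLP34, MLP165 and MLP28, whereas they overlapped for MLP329, at a level near 0. The stretches are from the RefSeq genome TAIR10.1, read along each gene's strand. Capitals mark ACGTG, the core that many bZIP and bHLH transcription factors bind. MLP43 and MLP423 also did not overlap in shoots, and their windows, which hold no ACGTG, are not shown.
MLP34 promoter, chr1:26716902-26717151, minus strand: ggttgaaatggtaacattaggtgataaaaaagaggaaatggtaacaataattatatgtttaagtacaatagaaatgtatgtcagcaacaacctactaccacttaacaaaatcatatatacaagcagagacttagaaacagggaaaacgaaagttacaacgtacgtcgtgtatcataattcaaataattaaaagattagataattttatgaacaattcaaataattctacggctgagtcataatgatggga
MLP165 promoter, chr1:12937788-12938037, minus strand: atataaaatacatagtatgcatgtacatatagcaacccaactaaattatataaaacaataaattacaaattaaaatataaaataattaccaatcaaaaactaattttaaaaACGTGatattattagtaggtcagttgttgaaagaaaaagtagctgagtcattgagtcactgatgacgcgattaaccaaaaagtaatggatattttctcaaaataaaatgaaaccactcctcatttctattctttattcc
MLP28 promoter, chr1:26711588-26711837, minus strand: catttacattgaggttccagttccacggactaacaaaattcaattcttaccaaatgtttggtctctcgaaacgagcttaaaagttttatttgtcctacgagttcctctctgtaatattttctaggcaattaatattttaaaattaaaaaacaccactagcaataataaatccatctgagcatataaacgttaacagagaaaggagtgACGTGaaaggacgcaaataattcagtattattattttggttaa
MLP329 promoter, chr2:239419-239668, plus strand: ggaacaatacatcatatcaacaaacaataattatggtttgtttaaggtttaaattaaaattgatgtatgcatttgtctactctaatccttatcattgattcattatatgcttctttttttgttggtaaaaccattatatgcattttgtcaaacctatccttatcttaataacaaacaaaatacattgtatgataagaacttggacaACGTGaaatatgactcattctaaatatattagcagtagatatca

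The evening element AAAATATCT was found in 0 of the 9 members' windows of this length and in 2.22% of 32721 gene windows, on either strand. Only exact matches were counted. The shorter AAATATCT lies in the MLP43 and MLP168 windows, and its share of all windows was not counted. The CCA1-binding site AAAAATCT was found in 0 of 9 and in 6.38% of all windows, and the G-box CACGTG in 0 of 9 and in 5.90%. The core ACGTG, which the G-box contains and which was added after the values were seen, was found in 4 of 9 (MLP28, MLP328, MLP329 and MLP165) and in 21.8% of all windows. Among 19 other genes annotated in the family, 10 windows held it. These are counts of letters in these windows and give no sites of binding.

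Across the 12 libraries, the genes whose log2(FPKM + 1) was most like that of MLP34 were IMS2, DOT1, CCR1, NSP1 and UMAMIT17, by Pearson correlation among 16508 genes with a group mean of at least 5 FPKM. The 12 libraries fall into 4 groups, so the likeness is mostly one of group means, and it is a description. IMS2 (AT5G23020, r = 0.999), an enzyme of the family that lengthens side chains of aliphatic glucosinolates, averaged 25.04 FPKM in CCA1-ox shoots, 0.775 in WT shoots, 73.5 in CCA1-ox roots and 66.5 in WT roots. DOT1 (AT2G36120, r = 0.999) averaged 487, 55.9, 961 and 884 FPKM in these groups. CCR1 (AT4G39260, r = 0.999), a glycine-rich RNA-binding protein under clock control, averaged 392, 141, 540 and 510 FPKM in them. NSP1 (AT3G16400, r = 0.998), a nitrile specifier protein that acts on glucosinolate breakdown, and UMAMIT17 (AT4G08300, r = 0.998), of a family of amino acid transporters, completed the 5. Of the other members, MLP165 was the most alike (r = 0.995, 18th of the 16508), whereas MLP329 had r = 0.753 and MLP28 r = −0.71.

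A further 19 genes carry the same RefSeq family annotation as the MLP genes, and 11 of them were tested. In CCA1-ox roots 2 of these were called higher and 4 lower, against 20.8% and 15.4% of all genes tested. AT1G14960 had 45.02, 46.1 and 40.6 FPKM in CCA1-ox roots, against 24.7, 22.2 and 22.0 FPKM in WT roots (log2 difference 0.91, limma adjusted p = 8.66e-08). AT1G70860, from the chromosome 1 row, was also higher (0.75, limma adjusted p = 1.84e-06). AT4G14060 had 15.8, 16.1 and 13.7 FPKM in CCA1-ox roots, against 39.4, 38.2 and 38.2 FPKM in WT roots (−1.29, limma adjusted p = 6.50e-08). AT3G26450 averaged 41.0 FPKM in CCA1-ox roots and 64.2 FPKM in WT roots (−0.64, limma adjusted p = 9.33e-10), and it overlaps AT3G26440 on the opposite strand, so its fragments may belong to either. The most abundant of the 19, AT4G23670, was lower too, at 507 FPKM in CCA1-ox roots and 688 FPKM in WT roots (−0.44, limma adjusted p = 1.37e-07). It was named after its values were seen.

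In shoots, given as values with no test, these 19 genes differed in both directions. AT1G70880 averaged 2.67 FPKM in CCA1-ox shoots and 0.0920 FPKM in WT shoots, and AT4G14060 2.06 FPKM in CCA1-ox shoots and 0.120 FPKM in WT shoots. AT4G23670 averaged 1679 FPKM in CCA1-ox shoots and 1083 FPKM in WT shoots. AT1G23130 ran the other way, at 157, 164 and 162 FPKM in CCA1-ox shoots, against 380, 375 and 377 FPKM in WT shoots, and it was listed at 0 in every root library. It passed the filter through shoots alone. Of the 11 genes tested, 7 were higher in WT roots than in WT shoots and 4 lower (limma, adjusted p under 0.05), against 45.3% and 41.8% of all genes tested, and the direction of AT4G23670 turned with quantile normalization.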

How the data were processed

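Values are the FPKM per gene that the authors deposited for the 12 libraries, with TAIR 10 positions per the submitters' processing notes. Per the labels' protocols, total RNA was made into stranded libraries. The sources used here do not name the aligner, the counter, the strand setting or the read length. FPKM times gene length gave whole fragments in 100% of values within 0.1. The authors' library size over the summed fragments averaged 0.976, 1.10, 0.906 and 1.15 in CCA1-ox shoots, CCA1-ox roots, WT shoots and WT roots, so scaling was varied.

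Using limma 3.58.1 (R 4.3.3, mean-variance trend), 1 model of 4 group means was fitted to log2(FPKM + 1) of the 12 libraries, for genes with at least 1 FPKM in at least 3 libraries. P-values were two-sided and adjusted over 20975 genes by the Benjamini-Hochberg method, with calls at adjusted p under 0.05. Differences on this scale understate the change of low genes. The groups share an estimate of spread for each gene, so shoot libraries, also those near 0, enter the root SE and p-values. The script was tested on simulated data. No library's values were identical to another's. Labels gave the groups. The members, the gene lists and the motifs were chosen with earlier results of these data known. Named genes are CCA1, the 9 members, the 5 genes most correlated with MLP34 and defining markers. The plan added up to 4 genes per related list and comparison, the largest changes first. Outside it, every PYR/PYL gene called in roots, PYL8 in shoots, PRP1, the phloem genes other than SUC2 and the flagged genes were named. AT4G23670 and genes of the chromosome 1 row were named after their values were seen. Alternatives were other pseudocounts, filters and scalings, voom, a fit on the compared groups alone, a replicate block and leaving out each library. Alignments used Biopython 1.88.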

Additional observations from a re-analysis of the deposited data

Results flagged for a closer look

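For the following genes every CCA1-ox library lay on one side of every WT library in shoots and on the other side in roots. The share of all genes with this pattern was not counted. With no overlap, 28.7% of all genes tested lay higher and 31.7% lower in shoots, and 27.6% and 19.7% in roots. The shoot comparison is the one that drew attention to MLP34, and nothing is read from the number of genes listed. The difference between the organs was not tested, and the values are the root difference minus the shoot difference in log2(FPKM + 1). For MLP28 it was −1.19, from −0.25 in roots and 0.94 in shoots, with 33 fragments or fewer in each root library. For the related genes AT4G14060, AT3G26460, AT4G23670 and AT3G26450 it was −2.74, −1.09, −1.07 and −0.769, each higher in CCA1-ox shoots and lower in CCA1-ox roots. For AT3G26460 the root difference was not called (limma adjusted p = 0.0584). The abscisic acid receptor PYL9 had −0.526, also higher in CCA1-ox shoots and lower in CCA1-ox roots. PYL1 had 0.578, lower in CCA1-ox shoots and higher in CCA1-ox roots.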

How the results depend on the processing

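In CCA1-ox roots, 3 MLP members were called, 5 with voom (2 higher, 3 lower) and 3 to 5 without each library in turn, 5 without WT shoots replicate 2. The member calls differed in kind. A pseudocount of 5 and quantile normalization gave 3 higher and 0 lower. A pseudocount of 0.1 and summed-fragment scaling gave 1 higher and 2 lower. Over all genes tested the calls shifted as well, from 4372 higher and 3240 lower. They were 4642 and 3123 with a pseudocount of 5, and 3707 and 3680 with quantile normalization. With a pseudocount of 0.1 they were 3651 and 3134, with summed fragments 2953 and 4665, and with voom 3364 and 4773. Nothing is read from the member counts. The root difference of MLP328 turned to −0.22 with quantile normalization, −0.066 with summed fragments and −0.071 with voom, and ran from −0.022 to 0.039 without each library. That of MLP165 turned to −0.035, −0.025 and −0.025, and that of MLP423 ran from −0.020 to 0.12 without each library. MLP168 was called in 7 of its alternatives. The shoot difference of MLP34 was 6.54 with a pseudocount of 0.1, 5.21 with 5 and 6.70 with voom, and 6.09 to 6.27 without each library. The causes were not tested. All 7 members kept their organ direction and call wherever they could be tested. The filter of 5 FPKM left no value for MLP168.

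Replicate numbers did not pair the libraries, since deviations of same-numbered libraries correlated at −0.0445 to 0.0424 and 5 of 12 libraries were most like their own number. With the replicate block, 3 members and 7463 genes were called in roots, against 7612 genes without it, and 7 members and 18266 genes between organs, against 18285. Summed-fragment scaling moved the median gene by 0.30 between organs. Genes with a few fragments, such as MLP28 and MLP168 in roots, are limited by counting error.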

Other observations

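The PYR/PYL receptors, which share the fold of the MLP proteins and bind abscisic acid, were divided in CCA1-ox roots. Of 14 genes 9 were tested, and PYL4, PYL5 and PYL1 were called higher, PYL7, PYL9 and PYL8 lower and 3 not called (limma, adjusted p under 0.05), where 20.8% of all genes tested were called higher and 15.4% lower. PYL7 had the largest called change, at 2.84 FPKM in CCA1-ox roots and 4.53 FPKM in WT roots (log2 difference −0.52, limma adjusted p = 0.000414). PYL4 had 80.5, 77.0 and 78.8 FPKM in CCA1-ox roots, against 56.5, 57.0 and 61.4 FPKM in WT roots (log2 difference 0.43, limma adjusted p = 2.78e-06). PYL9 had 13.8, 13.8 and 14.6 FPKM in CCA1-ox roots, against 18.7, 18.7 and 17.5 FPKM in WT roots (−0.36, limma adjusted p = 5.22e-05). In shoots, given as values, 1 of the 9 lay higher in CCA1-ox with no overlap, 5 lay lower and 3 overlapped, against 28.7% higher and 31.7% lower with no overlap among all genes tested. PYL8 averaged 26.4 FPKM in CCA1-ox shoots and 41.0 FPKM in WT shoots. None of the receptors reached the level of MLP34 or MLP43 in CCA1-ox shoots.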
